A study of Mus musculus with 16 samples.

Results

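The mean response to added vitamin B12 was measured over both oxygen conditions of a mouse proximal tubular cell line, BU.MPT. All 16 arrays of the series were used: 8 from cells given B12 and 8 from cells without it, chosen by the sample titles. The measure is the B12 difference, with B12 minus without, taken separately in normal culture and after hypoxia and reperfusion (H/R) and then averaged. It was computed for 22206 of the 28846 deposited features, the rest being controls of the array.

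The 4 groups held 4 arrays each. Control cells stayed at 21% oxygen in medium holding 4.5 g/L glucose and 10% serum. For H/R the cells were kept for 3 h at about 1% oxygen in medium that lacked both of these, followed by 1 h of return to the control conditions. Groups named control+B12 or H/R+B12 had the same handling with 0.3 µM cyanocobalamin, which was also in the hypoxia medium. All groups shared growth to near confluence at 39 °C with no IFN-γ, and 700 pg of RNA entered each labelling. In the free-text descriptions of some treated replicates the vitamin's number rises with the replicate number, while every treated title reads B12; the titles were followed. Nothing in the labels tells separate cultures from repeats of 1 culture, and p-values here therefore reflect only how these samples vary, which may be technical. A single line of immortalized cells stands for the tubule in every group.

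Vitamin B12, or cobalamin, travels in plasma on transcobalamin, and most cells take this complex up through the receptor CD320. The proximal tubule also recovers filtered transcobalamin with B12 through megalin, a large endocytic receptor of the brush border. Inside the cell the cyano group is removed, and the vitamin then serves methionine synthase in the cytosol and methylmalonyl-CoA mutase in mitochondria. Cobalamins can also react with superoxide, a radical formed when oxygen returns to hypoxic tissue.

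The array medians of the tested probe sets ranged over 5.21 to 5.37 (log2), a balance that the authors' method (robust multi-array averaging), as usually run, largely sets in advance. Negative control features, designed to match no transcript, had array medians of 5.72 to 6.23 and differed by -0.070 between B12 and no B12 (exact permutation p = 0.356, two-sided, B12 labels exchanged within each H/R state, 4900 relabellings). The median of these 16 values, 5.937, serves below as the background level; 10499 probe sets had a mean above it. Of 27 proximal tubule markers 4 had a mean above it, namely Mme, Aqp1, Slc4a4 and Slc7a7, while Slc34a1, Cubn and Lrp2 did not. Above the same level were 2 of 21 distal nephron markers, 1 of 14 fibroblast markers, 0 of 14 endothelial markers, 2 of 19 leukocyte markers and 3 of 7 podocyte markers.

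No gene passed the test for a mean B12 difference. With limma and Benjamini-Hochberg adjustment over 22206 probe sets, 0 (0%) had an adjusted p under 0.05, and the smallest adjusted p was 0.646. At an unadjusted p under 0.05 there were 1223 probe sets (5.51%), of which 641 (2.89%) were higher and 582 (2.62%) were lower with B12. Some probe sets (254) held the same values as another one; with each such set counted once, the share at the unadjusted level was 1215 of 22064 (5.51%). The negative control features, put through the same fit, gave 253 of 5222 (4.84%) at this unadjusted level and 0 after adjustment. For scale, the H/R difference over both B12 states, estimated from the same 16 arrays, passed for 6035 probe sets (27.2%), 2773 (12.5%) higher and 3262 (14.7%) lower. Over all probe sets the median size of the B12 difference was 0.104 on the log2 scale, against 0.220 for the H/R difference.

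The intervals give the size of a B12 difference in signal that these arrays would leave room for. The 95% interval of a single probe set reached a median of 0.328 (log2) to either side of its estimate. The interval lay wholly within a 2-fold change in either direction (log2 of 1) for 21953 probe sets (98.9%), and within 1.5-fold (log2 of 0.58) for 16831 (75.8%). Bright probe sets were measured most precisely. Of the 5552 brightest, with mean signals of 10.24 to 19.3, 5551 intervals lay within 2-fold and 5508 within 1.5-fold. Of the 5551 with means of 3.33 to 5.24, 54.5% lay within 1.5-fold. Of the 5552 dimmest, with means of 2.12 to 3.33, 99.3% lay within 2-fold. Only 10499 probe sets had a mean above the background level. Below it, a narrow interval bounds the signal and need not bound a change in RNA. From the dimmest to the brightest of 4 classes of equal size, the share with an unadjusted p under 0.05 was 6.34%, 7.13%, 5.96% and 2.59%. Each interval covers 1 probe set taken alone, so some among so many will miss the true value.

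**Figure D1:**
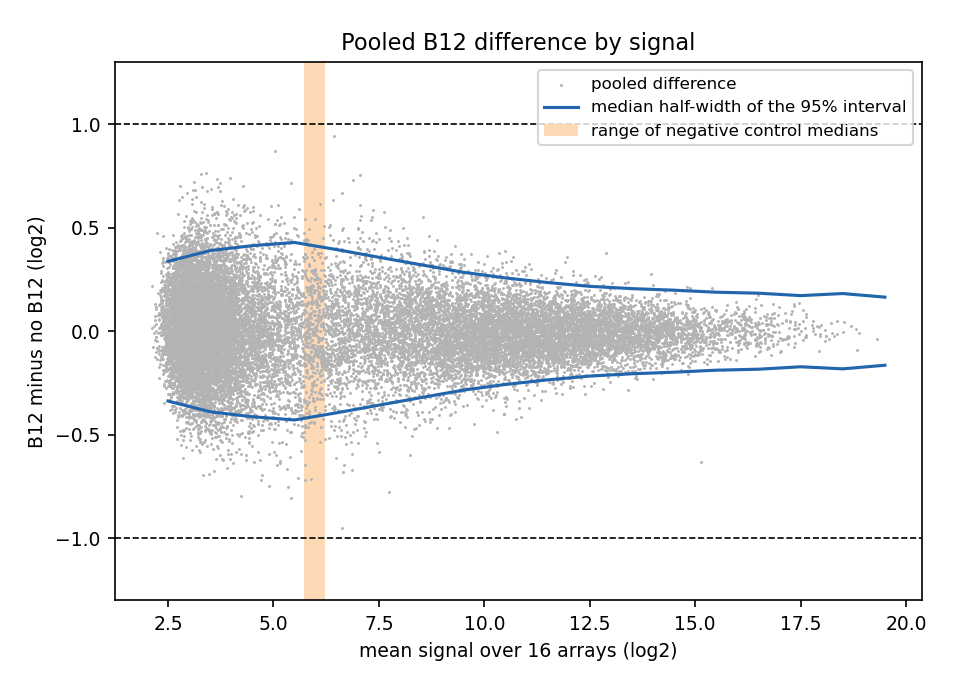
Pooled B12 difference of each probe set (log2, vertical axis) against its mean signal over 16 arrays (log2, horizontal axis); the blue lines are the median half-width of the 95% interval at that signal, the dashed lines mark a 2-fold difference and the orange band spans the 16 negative control medians, 5.72 to 6.23. The spread of the differences narrows towards bright probe sets, and a single probe set at -3.69 lies outside the axes.

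The transport proteins of cobalamin were measured with different precision. Tcn2, which encodes transcobalamin, was bright. Its signal was 13.58, 14.33, 14.35 and 14.41 on the control arrays, 14.26, 14.56, 14.35 and 14.39 with B12, 13.93, 13.82, 14.05 and 13.97 after H/R, and 13.78, 13.77, 13.84 and 13.97 after H/R with B12. The groups with and without B12 overlapped in both states, with control replicate 1 low. Its pooled B12 difference was 0.06 ± 0.12 (log2, standard error), with an interval of -0.19 to 0.31. Cd320, the cellular receptor, was at 9.61, 9.95, 10.19 and 10.13 in control, 9.82, 10.06, 10.10 and 10.07 in control+B12, 8.62, 9.35, 9.31 and 9.42 in H/R and 9.24, 9.03, 9.45 and 9.15 in H/R+B12. These groups overlapped too, and the pooled difference was 0.04 ± 0.13 (-0.23 to 0.31). Both genes fell with H/R over the 2 B12 states, Cd320 by 0.79 and Tcn2 by 0.39 on the log2 scale (limma, adjusted p = 0.000157 and 0.0191). The sign of the small B12 difference depended on single arrays: without control replicate 1 it was -0.036 for Tcn2 and -0.020 for Cd320.

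Genes of the tubular uptake route lay below the background level in all 4 groups, so their intervals describe dim signals. Lrp2, encoding megalin, had a pooled difference of 0.08 ± 0.16 (-0.26 to 0.42). Cubn, encoding cubilin, the receptor for intrinsic factor with B12, was at -0.18 ± 0.19. Amn, whose product anchors cubilin at the membrane, was at -0.12 ± 0.21. Lmbrd1 and Abcd4 encode the proteins that move cobalamin out of the lysosome. Lmbrd1, at a mean signal of 13.2, was at 0.07 ± 0.09 (-0.13 to 0.27). Abcd4 lay near the background level with differences of 0.33 in normal culture and -0.58 after H/R, and the difference between these did not pass (interaction, adjusted p = 0.972).

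Mmachc removes the cyano group from cyanocobalamin. Its signal was 9.92, 9.77, 9.99 and 9.55 in control, 9.81, 9.53, 9.76 and 9.77 in control+B12, 9.09, 9.15, 9.97 and 9.27 in H/R and 9.30, 9.48, 8.73 and 9.27 in H/R+B12. The values overlapped in both states and the pooled difference was -0.13 ± 0.14 (-0.43 to 0.17). Thap11 encodes a transcription factor that works with the cofactor HCFC1 on the Mmachc gene. It was at 7.13, 7.30, 7.43 and 7.18 in control and 7.37, 7.65, 7.32 and 7.40 in control+B12, which overlap. After H/R it was at 7.52, 7.43, 7.50 and 7.35 without B12 and 7.84, 7.69, 7.59 and 8.38 with it, so that all H/R+B12 arrays were above all H/R arrays. The pooled difference of 0.30 ± 0.11 had an unadjusted p of 0.0166 and an adjusted p of 0.882 in limma.

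The enzymes that use B12 were detected well above background. Mtr encodes methionine synthase, which transfers a methyl group from folate to homocysteine. It was at 11.08, 10.75, 10.41 and 10.79 in control, 10.70, 10.25, 10.69 and 10.77 in control+B12, 9.88, 9.67, 9.79 and 10.00 in H/R and 9.98, 9.50, 9.44 and 9.54 in H/R+B12. The groups overlapped in both states; the pooled difference was -0.19 ± 0.12 (-0.45 to 0.07). Mtrr, which reactivates methionine synthase, was at -0.07 ± 0.14, with -0.35 in normal culture and 0.21 after H/R. Mmut encodes methylmalonyl-CoA mutase of the propionate pathway. Its arrays read 11.22, 11.46, 11.43 and 11.63 in control against 11.45, 11.35, 11.30 and 11.03 with B12, and 10.83, 11.08, 10.99 and 10.97 in H/R against 10.75, 10.68, 10.81 and 10.54 with B12. The normal culture arrays overlapped, while all H/R+B12 arrays lay below all H/R arrays by a margin of hundredths. The pooled Mmut difference was -0.21 ± 0.09 (-0.41 to -0.01; limma, unadjusted p = 0.0391, adjusted p = 0.882). H/R itself lowered Mtr by 0.95 and Mmut by 0.53 on the log2 scale (H/R difference over B12, limma, adjusted p = 1.36e-05 and 0.000382).

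Mmaa and Mmab serve the mutase, Mmab by making adenosylcobalamin and Mmaa by protecting the enzyme and its cofactor exchange. Mmaa was at 7.32, 7.12, 7.55 and 7.55 in control, 7.42, 7.15, 7.99 and 7.85 in control+B12, 6.80, 6.98, 7.02 and 6.34 in H/R and 6.99, 7.06, 7.55 and 7.28 in H/R+B12. The groups overlapped in both states. The pooled difference of 0.33 ± 0.15 (0.02 to 0.64) had an adjusted p of 0.891 in limma. Mmab was at 0.02 ± 0.12 (-0.24 to 0.27).

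**Figure D2:**
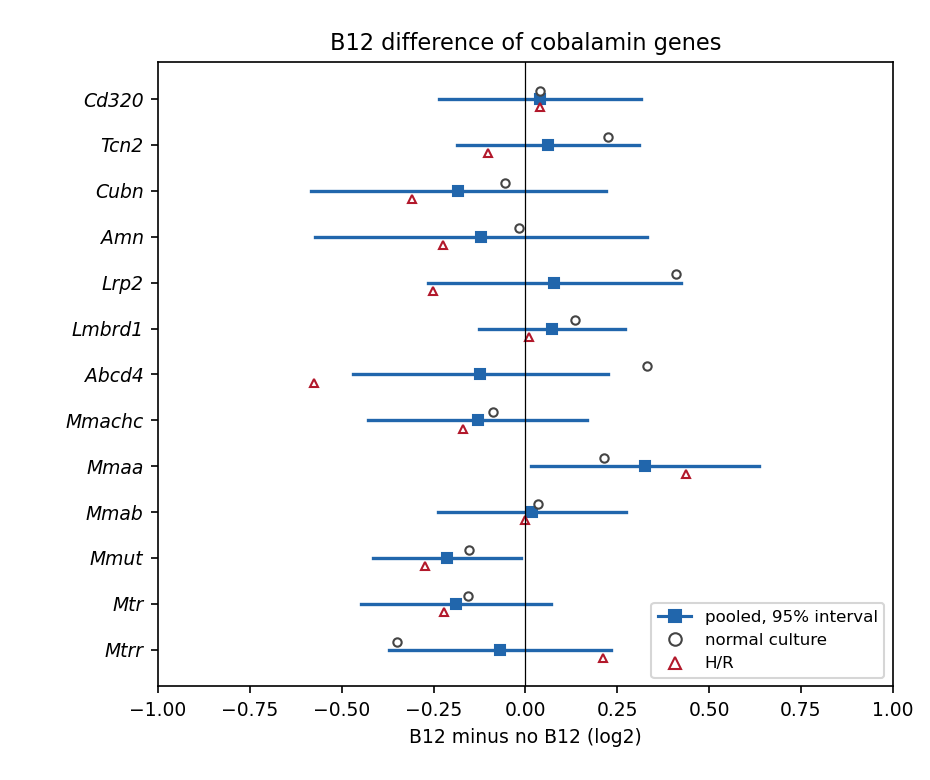
Pooled B12 difference (log2, horizontal axis) of 13 cobalamin genes with its 95% interval (blue squares and lines), and the difference in normal culture (open circles) and after H/R (open triangles), each from 4 against 4 arrays. The intervals of Mmut and Mmaa leave out 0 on opposite sides before adjustment, and all 13 intervals lie within 2-fold.

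As a group, 22 genes of cobalamin uptake and trafficking had a median B12 difference of 0.037, against -0.0012 over all probe sets, and with 1 array left out it ran from -0.016 to 0.044. At an unadjusted p under 0.05, 2 were higher and 1 was lower (13.6% of the 22), where 2.89% of all probe sets were higher and 2.62% lower; all 22 intervals lay within 2-fold. The methionine and S-adenosylmethionine cycle, which methionine synthase feeds, had 0 of 28 genes at that level and a median of -0.029, which turned to 0.012 without control replicate 1. Its smallest p belonged to Mat2b, a regulatory subunit of methionine adenosyltransferase, at -0.14 ± 0.08. Among 30 folate and serine one-carbon enzymes 1 was higher (3.33%, beside 5.51% of all probe sets), Dmgdh of choline breakdown at 0.43, and it lay below background in all groups. The list's median was -0.050. Of 26 genes of propionate and branched-chain catabolism 2 were lower (7.69%), Mmut and Pccb, the latter encoding a subunit of propionyl-CoA carboxylase, at -0.49 ± 0.18. That list's median was -0.012.

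Genes named by the smallest p-values are given as values, since none passed. Nudt11, encoding a phosphatase of inositol pyrophosphates, was at 4.39, 4.72, 4.71 and 4.37 in control and 4.98, 5.16, 5.19 and 4.69 in control+B12. After H/R it was at 5.40, 4.17, 4.56 and 4.48 without B12 and 5.52, 5.98, 6.24 and 5.98 with B12. The arrays overlapped in normal culture and were apart after H/R, with H/R replicate 1 high within its group. The pooled difference was 0.87 ± 0.16 (0.53 to 1.21; limma, adjusted p = 0.646), made up of 0.45 in normal culture and 1.28 after H/R. Its mean lay below the background level in all 4 groups. In H/R+B12 the margin was narrow (5.933 against 5.937), and most arrays of that group were above the level. With H/R replicate 1 left out, Nudt11 was the only probe set to pass, at 0.99 (adjusted p = 0.0308, against a range of 0.0308 to 0.93 over its 25 alternatives).

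Pstpip1, an adaptor of the actin cytoskeleton known from blood cells, had the smallest p. It was at 8.42, 8.48, 8.23 and 7.78 in control, 8.26, 7.64, 7.52 and 7.44 in control+B12, 7.94, 8.05, 8.25 and 7.97 in H/R and 7.23, 7.13, 6.76 and 6.89 in H/R+B12. The normal culture arrays overlapped through control+B12 replicate 1, and the H/R arrays were apart. The pooled difference was -0.78 ± 0.14 (-1.07 to -0.49; limma, unadjusted p = 3.57e-05, adjusted p = 0.646). Over its 25 alternatives the adjusted p ran from 0.0746 to 0.93. Unlike Nudt11, Pstpip1 was above the background level in every group.

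Ypel4, of the yippee-like family of small zinc-binding proteins, was at 6.75, 7.28, 7.24 and 7.19 in control, 8.24, 8.32, 7.50 and 7.82 in control+B12, 5.82, 6.11, 6.72 and 6.33 in H/R and 7.25, 6.77, 6.94 and 6.63 in H/R+B12. Arrays were apart in normal culture and overlapped after H/R. Its pooled difference was 0.75 ± 0.16 (0.42 to 1.08; adjusted p = 0.882, the same value as for the other 17 genes among the 20 of smallest p). Rita1, which binds RBPJ of the Notch pathway, was at 6.85, 5.36, 6.38 and 6.08 in control against 6.97, 7.15, 6.89 and 6.89 with B12, and at 5.87, 5.78, 6.09 and 5.37 in H/R against 7.08, 6.03, 7.04 and 7.30 with B12. The first 2 groups were narrowly apart, and H/R+B12 replicate 2 overlapped the H/R arrays. At 0.95 ± 0.21 (0.51 to 1.38) it was the largest positive difference measured. Stap2, a signalling adaptor, was at 0.71 ± 0.17, with its highest array without B12 and its lowest with B12 equal to 2 decimals in each state, at 5.80 in normal culture and 5.12 after H/R.

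Trmt10c encodes a subunit of mitochondrial RNase P, which frees tRNAs from mitochondrial transcripts. It was at 9.90, 9.85, 9.81 and 9.31 in control, 8.91, 9.06, 9.38 and 9.16 in control+B12, 10.32, 10.25, 10.07 and 10.25 in H/R and 9.91, 9.99, 9.83 and 9.95 in H/R+B12. Control replicate 4 overlapped the B12 arrays, and the H/R arrays were apart. The difference was -0.45 ± 0.10 (-0.67 to -0.22). Mettl15, a methyltransferase of mitochondrial ribosomal RNA, was at -0.67 ± 0.17, and Mtrf1, a mitochondrial translation release factor, was at -0.70 ± 0.18 and below background in all groups. These were picked by p-value and make up no list, so the shared organelle was not tested.

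Tlr1, a receptor for bacterial lipoproteins, was at 7.02, 6.71, 6.67 and 6.73 in control, 5.90, 5.96, 6.10 and 6.72 in control+B12, 5.00, 4.64, 4.45 and 4.64 in H/R and 4.64, 3.93, 2.82 and 3.78 in H/R+B12. Both pairs of groups overlapped by 1 array. Its B12 difference was -0.75 ± 0.20 (-1.18 to -0.32), beside an H/R difference of -2.24 that passed the test (adjusted p = 3.42e-07); both H/R groups had means below the background level. Among the remaining lower genes, Zfp37 (a zinc finger protein) was at -0.49 ± 0.12 and Tmem79 (a membrane protein) at -0.46 ± 0.12. Fabp9, a lipid-binding protein of the testis, was at -0.55 ± 0.12, Kcns3 at -0.50 and Ppp4r4 at -0.66. Among the higher genes, Ramp1, a partner of the calcitonin receptor-like receptor, was at 0.57, Esp36 at 0.70, P4ha3 at 0.50 and Mrgpra3 at 0.40. Tmcc2 had a pooled value of 0.53 made up of 1.00 in normal culture and 0.06 after H/R, and Meikin one of 0.54 made up of 0.04 and 1.03. For neither does the mean over states describe both, though the interaction did not pass (limma, unadjusted p = 0.00223 and 0.00239, adjusted p = 0.945 for both).

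The 20 named genes of smallest p, 10 in each direction, were mostly dim. In 11 of them the mean of every group lay below the background level, for Nudt11 in H/R+B12 only narrowly. Another 6 were above it in all groups (Ypel4, Pstpip1, Trmt10c, Mettl15, Zfp37 and Tmem79). Arrays with and without B12 were apart in normal culture for 11 of the 20, after H/R for 8, and in both states for Stap2 and Fabp9. Of all probe sets 2.87% were apart in normal culture, 2.87% after H/R and 0.0405% in both states the same way. These genes were chosen by the same values, so the counts describe them and test nothing.

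**Figure D3:**
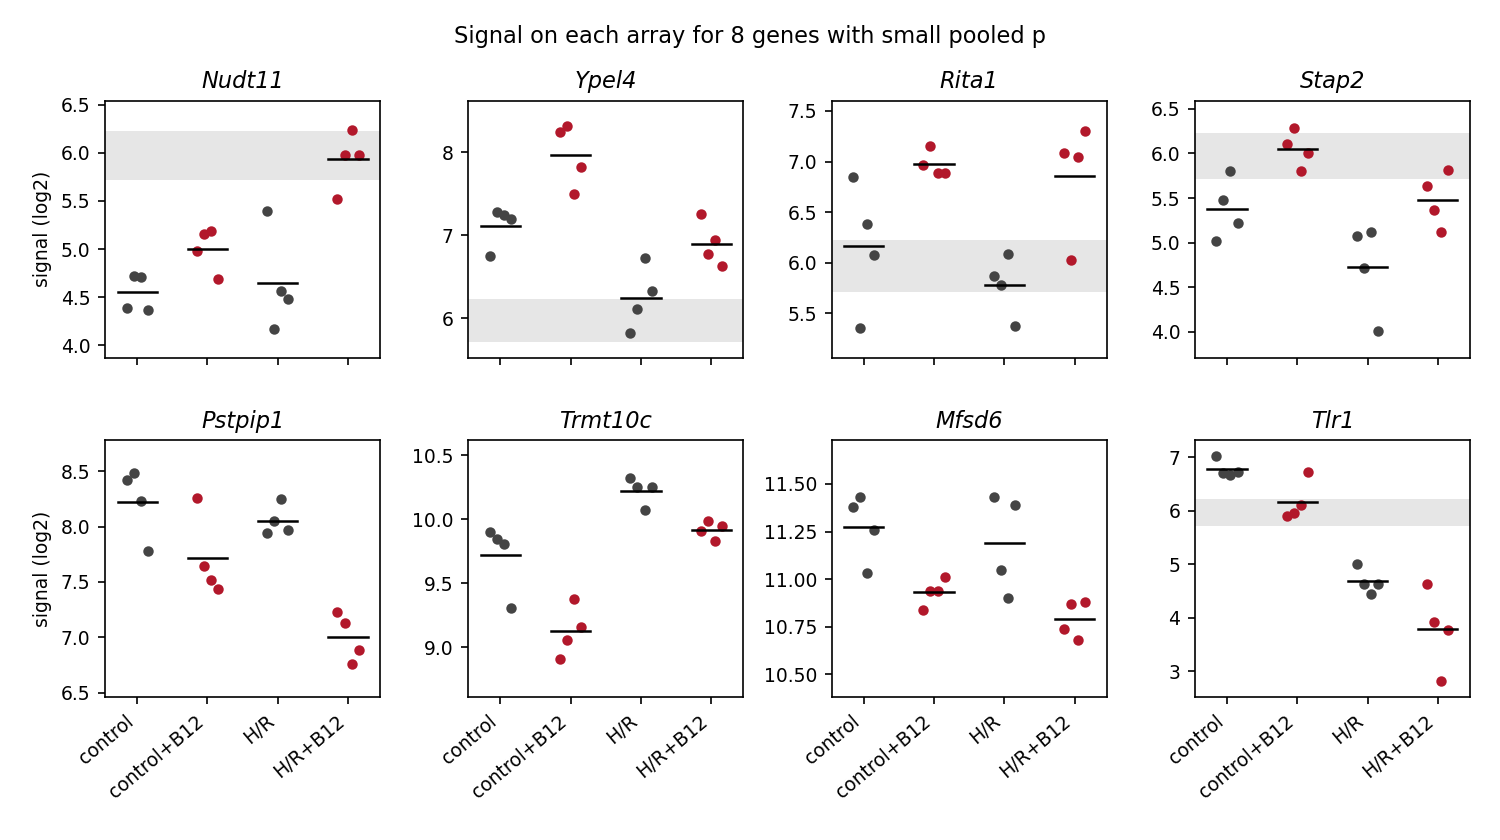
Signal (log2, vertical axis) of 8 genes on each of 16 arrays, black points without B12 and red points with B12, with the group mean as a line; the grey band, where it falls in view, spans the negative control medians, 5.72 to 6.23. In Nudt11 and Pstpip1 the H/R+B12 arrays stand apart from the H/R arrays, while the normal culture arrays overlap.

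Across all probe sets, 9 (0.0405%) had every B12 array on the same side of every array without B12 in both states, 3 (0.0135%) higher and 6 (0.0270%) lower. Within normal culture alone 637 probe sets (2.87%) were apart in this way, and within H/R also 637 (2.87%). These 9 were named after their values were seen. Mfsd6, a membrane protein of the major facilitator family, was the brightest of them but for Map4k4. Its arrays read 11.38, 11.43, 11.03 and 11.26 in control, 10.84, 10.94, 10.94 and 11.01 in control+B12, 11.43, 11.05, 10.90 and 11.39 in H/R and 10.74, 10.87, 10.68 and 10.88 in H/R+B12. The gap between groups was hundredths in either state, and the pooled difference was -0.37 ± 0.10. Map4k4, a kinase of stress signalling, was at -0.28 ± 0.09, Zfyve19 at 0.28 and Golga5, a Golgi golgin, at 0.23. Padi1, Plaat1, Fabp9 and the unnamed probe set TC0200001268.mm.2 were below background in all groups, at -0.39, -0.20, -0.55 and -0.51, and Stap2 was below it in 3 groups.

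The B12 differences in normal culture and after H/R, which share no array, had little in common. Over 22206 probe sets their Pearson correlation was 0.019, and over the 5552 brightest 0.043, given here as a description of points that share libraries. The 2 differences had the same sign in 11147 probe sets (50.2%). Normal culture alone gave 1280 probe sets (5.76%) at an unadjusted p under 0.05 and 0 after adjustment. Of these 651 (50.9%) had the same sign after H/R, 38 were at that level in the same direction and 48 in the opposite one. For H/R the model gave 1010 (4.55%) at the unadjusted level and 0 after adjustment, with 538 (53.3%) of the same sign in normal culture. The 38 shared probe sets are 2.97% of the first set and 3.76% of the second. Fitted on the arrays of 1 state only, the unadjusted counts were 1150 (5.18%) in normal culture and 1107 (4.99%) in H/R.

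The test of the difference between the 2 states, the B12 by H/R interaction, also gave 0 probe sets at an adjusted p under 0.05 in limma and 1071 (4.82%) at an unadjusted one. Its smallest adjusted p was 0.803, shared by the 5 genes named here. Mfsd5, a molybdate transporter, had a B12 difference of -0.66 in normal culture and 0.71 after H/R. For Exosc9, a subunit of the RNA exosome, the values were -0.38 and 0.37. Dtd1, which removes D-amino acids from tRNA, stood at -0.17 and 0.90. Cercam was at 0.59 and -0.53, and Adam30 at -1.03 and 0.20, both below background in all groups. For Mfsd5, Exosc9 and Cercam the pooled value was near 0 (0.03, -0.01 and 0.03), as the mean of values of opposite sign. These genes were picked by the smallest interaction p, which makes unlike values likely. Their values therefore test no difference between the states.

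The largest pooled difference of all belonged to an unnamed probe set, TC1700001227.mm.2, at -3.69 ± 1.36 (-6.56 to -0.83; limma, adjusted p = 0.882). It was at 4.24, 6.08, 13.78 and 11.56 in control, 4.70, 4.18, 8.98 and 2.26 in control+B12, 4.68, 9.77, 11.58 and 7.14 in H/R and 4.34, 6.18, 2.86 and 5.76 in H/R+B12. Its arrays ranged widely within every group, and groups with and without B12 overlapped in both states.

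Of the 5552 brightest probe sets only that of Mt2 had a pooled difference beyond 1.5-fold, and it was picked out after its value was seen. Mt2 encodes a metallothionein, a small protein that binds zinc and copper. It was at 16.60, 14.35, 15.07 and 14.29 in control, 14.12, 14.42, 14.74 and 14.08 in control+B12, 16.25, 15.46, 15.77 and 15.87 in H/R and 15.29, 15.19, 15.20 and 15.56 in H/R+B12. The groups overlapped in both states, and control replicate 1 was the highest of all 16 arrays. The pooled difference was -0.63 ± 0.26 (-1.19 to -0.08; limma, unadjusted p = 0.0281, adjusted p = 0.882) and -0.38 without control replicate 1. Mt1, its neighbour in the same gene family, was at -0.10 ± 0.10 (-0.31 to 0.11), or -0.032 without that array, at a mean signal of 17.02.

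The gene lists place the B12 values beside the H/R response, which these arrays did resolve for many of them. Some lists had H/R medians near 0, among them cobalamin uptake and trafficking (-0.014) and Bcl2 family and cell death (-0.006). Over 26 lists the median B12 difference ran from -0.12 to 0.061. On the same arrays the list medians of the H/R difference ran from -0.56 to 1.08. Together the lists held 791 genes, of which 32 (4.05%) had an unadjusted p under 0.05 for B12, beside 5.51% of all probe sets, and 0 passed after adjustment. The B12 interval lay within 2-fold for 788 of the 791 and within 1.5-fold for 706. Outside 2-fold were Slc7a11, Hfe (-0.67, -1.36 to 0.02) and Derl3 (0.36, -0.32 to 1.04). Probe sets that rose with H/R (2773) had a median B12 difference of -0.020 against a median H/R difference of 0.637. At the unadjusted level 61 of them were higher and 82 lower with B12 (5.16%). Those that fell with H/R (3262) had medians of 0.0022 and -0.625, with 83 higher and 80 lower (5.00%). Both sets were chosen by their H/R difference on these arrays, which makes its median large. Without regard to sign, the median B12 difference was 0.082 in the first set and 0.083 in the second, beside 0.104 over all probe sets. Precisely measured probe sets pass the H/R test more readily, and these medians were not compared at matched precision.

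Slc7a11 encodes the cystine importer that feeds glutathione synthesis and is a target of both NRF2 and ATF4. It was at 5.64, 6.21, 5.22 and 5.94 in control, 5.31, 4.42, 5.44 and 4.42 in control+B12, 7.94, 7.52, 7.90 and 7.88 in H/R and 6.85, 7.66, 7.32 and 7.94 in H/R+B12. The groups with and without B12 overlapped in both states. The pooled B12 difference was -0.61 ± 0.20 (-1.03 to -0.19; limma, unadjusted p = 0.00713, adjusted p = 0.882), beside an H/R difference of 2.30 that passed (adjusted p = 2.13e-07). Both normal culture groups had means below the background level, so the B12 difference there (-0.86) and the size of the H/R difference rest on dim signals; after H/R, above background, the B12 difference was -0.36. It was 1 of 3 NRF2 targets of 27 that were lower at the unadjusted level, with Osgin1 at -0.51 and Cbr3 at -0.32, and 0 were higher; these 3 are 11.1% of the list, beside 2.62% of all probe sets lower and 5.51% in either direction. Cbr3 lay below background in all 4 groups. The NRF2 list's median was 0.007. Among 39 targets of ATF4 and the integrated stress response 3 were lower, Slc7a11 and the amino acid transporters Slc7a3 (-0.42, below background in all groups) and Slc1a5 (-0.26), or 7.69% of the list, with a list median of -0.030.

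Genes that remove peroxide or superoxide, the latter a species cobalamins can react with, had a median B12 difference of -0.0003 over 23 genes. Of these 13 fell with H/R. Sod3, the secreted superoxide dismutase, was at 0.50 and below background. Prdx3, the mitochondrial peroxiredoxin, was at -0.24 ± 0.11. Of 36 HIF targets 23 rose with H/R and 0 reached the unadjusted level for B12; the smallest p was that of the histone demethylase gene Kdm3a, at -0.14. All 36 intervals lay within 2-fold and 35 within 1.5-fold. Among 46 immediate early genes, of which 32 rose with H/R, Dusp4 (0.48) was higher and Ier2 (-0.45 ± 0.14) and Egr3 (-0.37, below background) were lower at the unadjusted level, as was Fosl1 at -0.40, named after its value was seen. These are 8.70% of the list, beside 5.51% of all probe sets. Dnajb1, a cochaperone, was the sole one of 20 heat shock genes at that level (0.19 ± 0.09), or 5.0% of them. The injury markers Havcr1 (KIM-1) and Lcn2 (NGAL) were at -0.02 ± 0.16 and 0.01 ± 0.10. Havcr1 lay below background in all groups and Lcn2 had a mean signal of 18.8.

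Mitochondrial and lipid genes gave the following counts. Of 54 oxidative phosphorylation subunits 44 fell with H/R, and 38 of the 54 had a positive B12 difference with a median of 0.045. Of all probe sets 49.7% had a positive B12 difference, and of the 5552 brightest 47.1%. Ndufb8 of complex I (0.35 ± 0.16) and Atp5e of the ATP synthase (0.32 ± 0.14) reached the unadjusted level. They are 3.70% of the list, beside 5.51% of all probe sets. Among 25 genes of fatty acid oxidation Acaa1a (0.34) and Acaa2 (0.27), both thiolases, reached it (8.0%). Of 15 glycolysis enzymes 14 had a positive B12 difference, with a median of 0.061, and 0 reached that level. Genes of a list move together from array to array, so shares of signs are not counts of independent genes.

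The lists with the lowest medians rested in part on a single array. Of 41 genes of G2 and M phase 36 had a negative B12 difference, with a median of -0.12, while 49.7% of all probe sets had a positive one. The mean signal of these genes was 11.62 on control replicate 1, against 10.81, 11.00 and 10.76 on the other control arrays, 10.80, 10.67, 10.83 and 10.83 in control+B12, 10.62, 10.66, 10.58 and 10.52 in H/R and 10.57, 10.69, 10.67 and 10.43 in H/R+B12. Control replicate 1 stood above all the rest. Without it the median was -0.051. With all arrays the list's median was -0.25 in normal culture and -0.022 after H/R. No gene of the list passed for B12, so a lower level with B12 is not established. Fewer cycling cells and less of these RNAs per cell could in any case not be told apart in such bulk samples. Aurkb, a mitotic kinase, was the 1 member at the unadjusted level, at -0.33 ± 0.14 (2.44%, beside 5.51% of all probe sets). The 42 genes of S phase and DNA replication had a median of -0.050, and of -0.011 without control replicate 1. Of these Tk1 (-0.38), Gins3 (-0.31) and Dscc1 (-0.47) were lower at the unadjusted level. They are 7.14% of that list, beside 2.62% of all probe sets lower and 5.51% in either direction. Folate and serine one-carbon enzymes also had a median of -0.050, and of -0.018 without control replicate 1. Cholesterol synthesis, in which 18 of 21 genes rose with H/R, had a median of -0.098 with 16 of 21 negative, and of 0.00039 without control replicate 1. Its genes had a mean of 12.52 on that array and of 11.98 to 12.14 on the other control arrays. The only cholesterol gene at the unadjusted level, Scap, was higher with B12 (0.24 ± 0.11), or 4.76% of the list.

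Ribosome biogenesis had a median of -0.045 over 37 genes and of 0.014 without control replicate 1. Its genes had a mean of 11.29 on that array and of 10.97 to 11.06 on the other control arrays. At the unadjusted level 2 of the 37 were lower (5.41%, beside 5.51% of all probe sets in either direction). They were Heatr1 (-0.26) and Utp20 (-0.25), both of the machinery that processes ribosomal RNA.

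The remaining lists had medians between -0.018 and 0.046. Of all probe sets 5.51% had an unadjusted p under 0.05, 2.89% higher and 2.62% lower. At that level Bcl2 family and cell death genes had 2 of 31 higher (6.45%), Birc3 (0.23) and Bcl2a1a (0.47, below background). NF-kB targets had Birc3 higher and Vcam1 (-0.39) lower of 38 (5.26%). The injury and dedifferentiation list had Sox9 (0.26) higher and Vcam1 lower of 28 (7.14%). Core histones (49), p53 targets (28), interferon-stimulated genes (39), autophagy and lysosome (34), iron and heme (26) and unfolded protein response genes (23) each had 0 at that level.

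**Figure D4:**
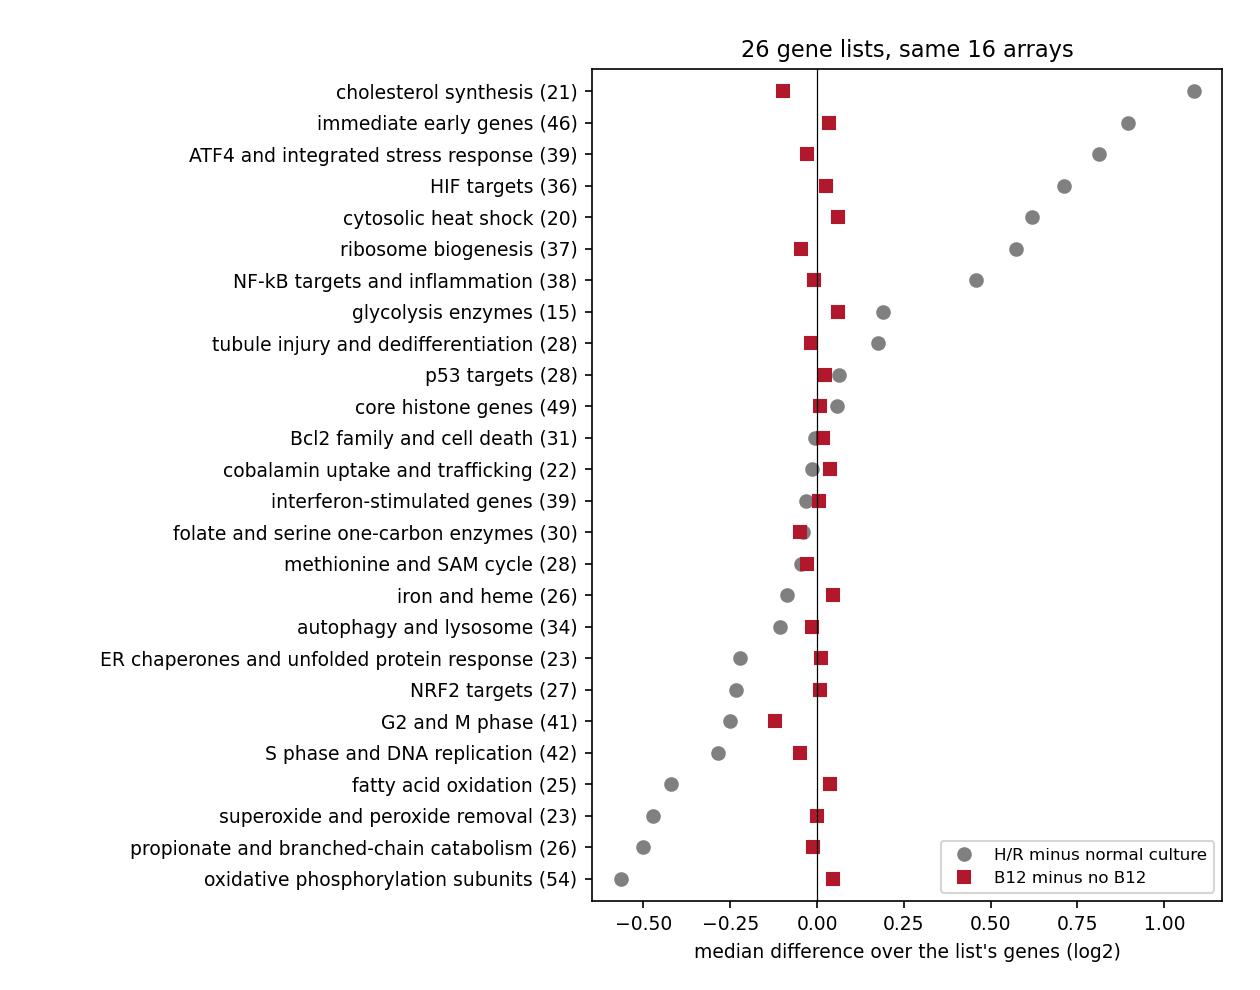
Median difference over the genes of each of 26 lists (log2, horizontal axis), B12 minus no B12 in red and H/R minus normal culture in grey, both from the same 16 arrays, with the number of measured genes in brackets. The B12 medians stay between -0.12 and 0.061 while the H/R medians run from -0.56 to 1.08.

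Cell type markers held no gene that passed for B12. Of 102 marker genes in 6 lists, the proximal tubule's own 27 included, 1 was higher and 6 were lower at the unadjusted level (6.86%, beside 5.51% of all probe sets). The 5 lists of other cell types held 75 of these genes, with 1 higher and 4 lower (6.67%). Among the genes at this level were Foxi1 of intercalated cells (0.43), Slc12a3 of the distal tubule (-0.37), Slc34a1 of the proximal tubule (-0.40), Robo4 of endothelium (-0.39) and Cd8a of T cells (-0.34), all below background in every group. The medians of the marker lists ran from -0.051 to 0.064. The mean signal of the leukocyte markers was 4.02 to 4.11 in control, 3.84 to 4.05 in control+B12, 4.01 to 4.25 in H/R and 4.02 to 4.32 in H/R+B12, so that the groups overlapped.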

How the data were processed

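The authors deposited log2 signals per probe set and array; per the submitters' processing notes these come from robust multi-array averaging (RMA), with Affymetrix Expression Console and the Transcriptome Analysis Console as the tools named (versions: not given in the sources used here). Left out of testing were 6640 control features (5222 negative, 1324 positive). Of 22206 probe sets 19572 carried 1 gene symbol in the platform annotation, for 19505 genes, and 2634 carried none. Histone symbols were updated through the RefSeq table of assembly GRCm38.p6; for a gene with several probe sets in a list the brightest was used.

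A model of 4 group means was fitted with limma 3.58.1 in R 4.3.3 (prior degrees of freedom 4.23, total 16.2) and checked on simulated data. P-values are two-sided, adjusted by Benjamini-Hochberg over 22206 probe sets, with a threshold of 0.05; intervals are 95%. RMA as usually run gives all arrays the same distribution of signals, so a shift of most genes together would not show. The number of arrays limits the precision.

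Genes named: the 10 smallest p-values in each direction, up to 3 members of each list, 5 genes of smallest interaction p, and the cobalamin and injury genes, passing over predicted and small RNA genes. Members and lists were chosen with earlier results of these data known; the H/R yardstick, the separated probe sets and the largest difference were added after values were seen. Residuals of the probe sets showed no pairing by replicate number: correlations of the 24 same-numbered pairs ran from -0.072 to 0.079, and of 72 different-numbered pairs from -0.079 to 0.070. The negative control median, however, was highest on replicate 1 in every group. It was 6.10 there in control, 6.08 in control+B12, 6.23 in H/R and 6.17 in H/R+B12. Whether same-numbered arrays shared a run was not tested. Alternatives were a replicate block, an additive model, fits within a state, an intensity trend, array weights, a negative control covariate, a filter on dim probe sets, quantile normalization, centring, 1 probe set per gene, other thresholds and leaving out each array. Plots used Python 3.11.15 with matplotlib 3.10.9.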

Additional observations from a re-analysis of the deposited data

Results flagged for a closer look

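In 8 of 100 groups of 4 arrays examined, the highest or lowest array lay far from the other ones of its group by Dixon's criterion, which chance alone meets in about 1 of 20 groups. Among controls these were Tlr1 at 7.02 (others 6.67 to 6.73), Tcn2 at 13.58 (others 14.33 to 14.41) and the median of the negative control features at 6.10 (others 5.85 to 5.88), all on replicate 1, and Trmt10c at 9.31 on replicate 4 (others 9.81 to 9.90). In control+B12, Mtr was at 10.25 on replicate 2 (others 10.69 to 10.77) and Cd320 at 9.82 on replicate 1 (others 10.06 to 10.10). In H/R, Cd320 was at 8.62 on replicate 1 (others 9.31 to 9.42) and Slc7a11 at 7.52 on replicate 2 (others 7.88 to 7.94).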

How the results depend on the processing

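The count of probe sets passing for the pooled B12 difference was 0 under every alternative that kept an adjusted threshold and all 16 arrays, the paired fit with a replicate block included (0, with 1251 at an unadjusted p under 0.05). Leaving out 1 array gave 0 to 1 for the pooled difference, for normal culture and for H/R. Nudt11 passed without H/R replicate 1 (pooled, and 1.53 for B12 after H/R, limma, adjusted p = 0.0166). Adam30 passed in normal culture without control replicate 2 (-1.25, limma, adjusted p = 0.0251). At an unadjusted p under 0.05 with a 1.5-fold difference the counts were 82 pooled, 548 in normal culture, 446 after H/R and 925 for the interaction; that rule has no correction for the number of tests. Unadjusted pooled counts ran from 1135 to 1326 as arrays were left out.

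Among named genes, signs turned for those whose difference was near 0. Of the 32 list medians 17 turned sign when some array was left out, 5 of them without control replicate 1. With 1 array left out, the pooled value ran from -0.053 to 0.081 for Cd320, -0.036 to 0.10 for Tcn2, -0.030 to 0.073 for Mmab, -0.24 to 0.0028 for Amn, -0.0058 to 0.18 for Lrp2, -0.100 to 0.067 for Havcr1 and -0.020 to 0.054 for Lcn2. With the negative control covariate Cd320 was at -0.027 and Havcr1 at 0.033, and with quantile normalization Lcn2 was at -0.0087. Signal near the background level limits what can be read from Nudt11, Cubn, Amn, Lrp2 and Havcr1.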
